A study of Mus musculus with 2 samples.

Results

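The 8 non-clustered protocadherin genes Pcdh1, Pcdh7, Pcdh8, Pcdh10, Pcdh12, Pcdh17, Pcdh18 and Pcdh20 were taken from the 16846 genes measured with at least 3 probes. Their 334 probes, of 474222 usable ones, were those whose array annotation names the gene, alone or joined by a hyphen to the gene on the other side of a divergent promoter. The genes were chosen by their log2 ratios of Ring1B IP over input by position in the promoter, so these ratios are given as a description, with no test. The study located the Polycomb protein Ring1B on chromatin of mouse embryonic stem (ES) cells with ChIP-chip: DNA recovered from crosslinked chromatin with an antibody is hybridised to a tiling array beside DNA of chromatin that saw no antibody. Immunoprecipitated (IP) DNA, recovered with a monoclonal Ring1B antibody, carried Cy5, and input DNA (whole-cell extract) carried Cy3. The labels name no genotype, treatment, time or ES cell line, and their source names begin with Muscle although the titles name ES cells, which the array cannot check because it measures DNA. There was no mock immunoprecipitation and no dye swap, and the 2 arrays were 2 slides with different probes, so each promoter was measured once, without replicates.

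Protocadherins are transmembrane adhesion proteins of the cadherin superfamily. The clustered ones lie in tandem arrays and give neurons their individual surface identities, whereas the non-clustered ones are single genes scattered over the genome, best known for cell sorting, axon growth and synapse formation in the developing nervous system. Pcdh1 and Pcdh7 belong to the delta-1 group, Pcdh8, Pcdh10, Pcdh17 and Pcdh18 to the delta-2 group, and Pcdh12 and Pcdh20 to neither. Ring1B, encoded by Rnf2, is the ubiquitin ligase subunit of Polycomb repressive complex 1, which in ES cells occupies CpG-rich promoters of many developmental genes.

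RefSeq promoter entries matched 6 of the 8 genes, each running 250 bases before to 50 after the start in GRCm38.p6 and printed on the gene's strand. They are shown for their CpG content, marked by capitals. The comparison of high and low promoters further on counts CpG over the array probes, not over these windows. Pcdh7 lies at chr5:57717831-57718130 on the plus strand, Pcdh8 at chr14:79771263-79771562 on the minus strand and Pcdh10 at chr3:45378148-45378447 on the plus strand. Pcdh17 lies at chr14:84443313-84443612 on the plus strand, Pcdh18 at chr3:49757267-49757566 on the minus strand and Pcdh20 at chr14:88471347-88471646 on the minus strand.
Pcdh7 promoter: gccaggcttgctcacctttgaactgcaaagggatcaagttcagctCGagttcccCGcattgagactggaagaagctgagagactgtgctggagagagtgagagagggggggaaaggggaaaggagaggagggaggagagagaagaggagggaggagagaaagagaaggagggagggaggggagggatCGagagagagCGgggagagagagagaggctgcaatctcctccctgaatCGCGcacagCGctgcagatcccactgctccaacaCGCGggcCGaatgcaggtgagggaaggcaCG
Pcdh8 promoter: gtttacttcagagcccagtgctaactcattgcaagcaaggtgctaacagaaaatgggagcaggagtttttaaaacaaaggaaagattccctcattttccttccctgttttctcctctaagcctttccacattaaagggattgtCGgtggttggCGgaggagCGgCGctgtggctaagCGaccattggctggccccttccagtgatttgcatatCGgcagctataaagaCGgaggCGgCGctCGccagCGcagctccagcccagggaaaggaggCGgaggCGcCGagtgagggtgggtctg
Pcdh10 promoter: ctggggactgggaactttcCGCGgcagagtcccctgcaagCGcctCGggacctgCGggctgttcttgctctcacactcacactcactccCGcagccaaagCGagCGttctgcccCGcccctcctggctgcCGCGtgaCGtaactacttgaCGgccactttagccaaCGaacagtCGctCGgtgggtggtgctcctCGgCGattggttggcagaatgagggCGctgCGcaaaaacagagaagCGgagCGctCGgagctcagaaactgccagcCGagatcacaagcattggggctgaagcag
Pcdh17 promoter: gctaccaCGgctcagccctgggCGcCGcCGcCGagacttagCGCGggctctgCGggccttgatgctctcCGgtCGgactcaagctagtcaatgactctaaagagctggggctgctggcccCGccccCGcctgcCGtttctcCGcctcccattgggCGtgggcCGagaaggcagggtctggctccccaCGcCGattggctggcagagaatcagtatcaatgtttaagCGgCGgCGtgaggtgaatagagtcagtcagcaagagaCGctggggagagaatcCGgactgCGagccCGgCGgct
Pcdh18 promoter: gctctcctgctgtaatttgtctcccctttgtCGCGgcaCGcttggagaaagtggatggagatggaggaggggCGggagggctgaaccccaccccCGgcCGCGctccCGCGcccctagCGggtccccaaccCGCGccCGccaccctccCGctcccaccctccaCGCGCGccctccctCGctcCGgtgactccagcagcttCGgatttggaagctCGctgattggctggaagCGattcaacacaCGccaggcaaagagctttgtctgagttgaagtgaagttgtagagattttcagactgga
Pcdh20 promoter: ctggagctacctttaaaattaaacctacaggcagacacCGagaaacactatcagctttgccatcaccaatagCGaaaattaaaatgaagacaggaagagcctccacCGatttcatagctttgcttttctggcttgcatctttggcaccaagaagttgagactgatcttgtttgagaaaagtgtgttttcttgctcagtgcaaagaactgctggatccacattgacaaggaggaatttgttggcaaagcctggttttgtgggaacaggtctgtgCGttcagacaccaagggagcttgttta

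These 300 bases held 26 CpG in Pcdh17, 24 in Pcdh10, 23 in Pcdh18, 14 in Pcdh8, 11 in Pcdh7 and 4 in Pcdh20, against a median of 7 over 32851 RefSeq promoters. Pcdh20 was thus the CpG-poor one of the 6, and Pcdh18 was among the CpG-rich ones. The letters GGGCGG (or CCGCCC on the other strand), present in 35.7% of all promoters, occurred once each in Pcdh10, Pcdh17 and Pcdh18, at 137, 131 and 181 bases before the start. TATAAA or its complement TTTATA, present in 13.6%, occurred only in Pcdh8 of the 6, 30 bases before the start. The octamer ATGCAAAT, found in 1.74% of promoters, occurred only in Pcdh8 of the 6, as its complement ATTTGCAT 47 bases before the start. These 2 matches do not overlap. None of the 3 motifs was in the Pcdh7 and Pcdh20 windows.

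The array probes with the highest ratio of each of these 6 genes are shown next, as deposited, because they are the DNA on which the largest values rest. No genome build is named for them (not given in the sources used here). CpG is again in capitals, and it is present in the highest probes of Pcdh7, Pcdh8, Pcdh10 and Pcdh17 and absent from those of Pcdh18 and Pcdh20. Probes without CpG were 8 of 40 in Pcdh7, 14 of 39 in Pcdh8, 16 of 46 in Pcdh10 and 15 of 47 in Pcdh17. In Pcdh18 they were 26 of 35 and in Pcdh20 30 of 47. With 1 probe a gene, picked by its ratio, this describes the printed sequences only. The highest probes lie at chr5:57080459-57080518 for Pcdh7, chr14:74454832-74454878 for Pcdh8, chr3:45320308-45320353 for Pcdh10, chr14:79123129-79123180 for Pcdh17, chr3:49881378-49881437 for Pcdh18 and chr14:83199979-83200037 for Pcdh20.
Pcdh7 probe: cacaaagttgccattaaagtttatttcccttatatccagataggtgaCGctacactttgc
Pcdh8 probe: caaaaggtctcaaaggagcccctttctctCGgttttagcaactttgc
Pcdh10 probe: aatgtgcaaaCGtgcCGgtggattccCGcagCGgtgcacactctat
Pcdh17 probe: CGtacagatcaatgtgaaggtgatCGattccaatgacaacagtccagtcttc
Pcdh18 probe: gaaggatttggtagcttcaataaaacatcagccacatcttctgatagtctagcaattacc
Pcdh20 probe: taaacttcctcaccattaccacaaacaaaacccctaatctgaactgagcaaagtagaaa

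The comparison of IP with input DNA asked where Ring1B sat on these promoters. Values are log2 ratios of IP over input signal minus the slide's median, and a gene's level is the mean over its probes with the SD over those probes. Of the 8 genes, 5 stood at or above 1, which is 2-fold over the median probe. Of all 16846 genes 1.99% did so. The 5 were Pcdh7 (1.91 ± 1.16, 40 probes), Pcdh8 (1.68 ± 1.28, 39 probes), Pcdh17 (1.59 ± 1.51, 47 probes), Pcdh1 (1.34 ± 1.21, 35 probes) and Pcdh10 (1.25 ± 1.33, 46 probes). Pcdh20 (0.58 ± 1.04, 47 probes), Pcdh18 (0.17 ± 1.37, 35 probes) and Pcdh12 (-0.55 ± 1.73, 45 probes) stood below it. None was at or below -1, where 1.85% of all genes lay. The values nearest the threshold were 1.25 for Pcdh10 inside it and 0.58 for Pcdh20 outside it.

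The median over the 8 genes was 1.30, against -0.10 over all genes and -0.08 over the 7560 genes with at least 30 probes, of which 3.27% were at or above 1. Among all genes by level, Pcdh7 ranked 24, Pcdh8 65, Pcdh17 82, Pcdh1 163 and Pcdh10 196. Pcdh20 ranked 987, Pcdh18 4061 and Pcdh12 14669. With 1 array a promoter the error of these levels between experiments was not measured. The SD over probes mixes position along the promoter with noise of single probes, and these were not separated. Which neighbours in this order differ was therefore not tested. Among these 8 genes only, both from the delta-1 group, 3 of the 4 from the delta-2 group and 0 of the 2 others were at or above 1. High and low genes were found on both slides: slide 1 carried Pcdh7, Pcdh10 and Pcdh18, and slide 2 the other 5. In this bulk assay, Ring1B in fewer cells and less Ring1B per cell cannot be told apart.

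**Figure D1:**
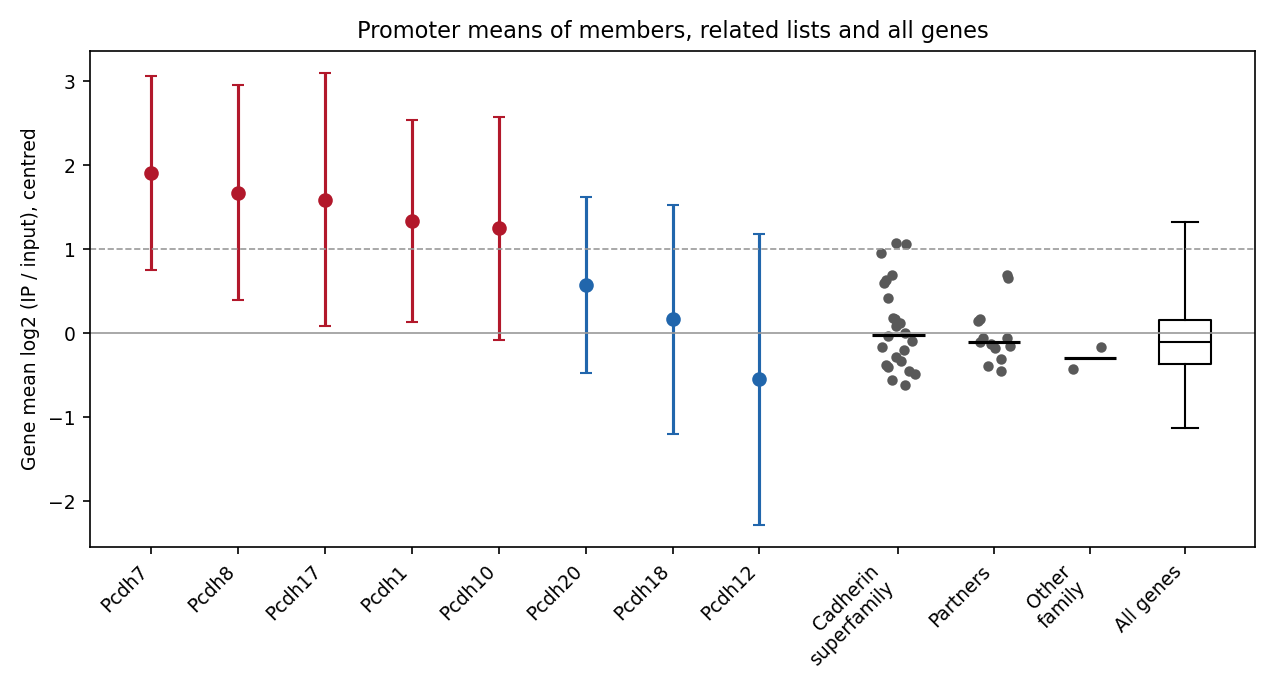
Gene mean of the centred log2 ratio of IP over input (y axis) for the 8 protocadherins, with bars for the SD over probes (not replicates), beside the cadherin superfamily, protein partners and other family genes (1 point a gene, line at the median) and all 16846 genes (box at the quartiles, whiskers at percentiles 1 and 99). The 5 red genes, 1.25 to 1.91, lie above the dashed line at 1, and the 3 blue ones, -0.55 to 0.58, lie below it.

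Of the delta-1 genes, Pcdh7, known as BH-protocadherin for its expression in brain and heart, had the highest level. Its promoter was tiled at chr5:57077178-57084361, and its probes ran between -0.26 and 4.20 with a median of 1.98. In all, 31 of the 40 probes were at or above 1 and none was at or below -1. The probe printed above, 1455 bp upstream of the start, had an IP signal of 9626, against an input signal of 446, in arbitrary intensity units. From 3186 bp upstream to the last probe inside the gene every ratio was at least 0.63. Beyond 2500 bp upstream 13 probes averaged 0.80 ± 0.73, against 2.64 ± 1.05 over the 8 probes between 2500 and 1000 bp upstream. The 14 probes inside the gene averaged 2.38 ± 0.96.

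Pcdh1, an adhesion protein best known from epithelia such as the airway, was tiled at chr18:38583597-38591472. Its 35 probes ran between -1.91 and 2.99 with a median of 1.58, and 22 were at or above 1. The values alternated along the promoter more than in the other genes. Neighbouring probes correlated at -0.10 over 34 pairs in Pcdh1, against 0.24 to 0.65 over 34 to 46 pairs in the other 7 genes. This correlation is a description, since neighbours lie a median of 154 to 193 bp apart and can share DNA fragments. At 3280 bp upstream the ratio was -0.65, with an IP signal of 4061 and an input signal of 5684, and at the next probe, 3086 bp upstream, it was 2.50, with an IP signal of 849 and an input signal of 134. Unlike the other 7 genes, Pcdh1 was higher upstream (1.55 ± 1.04, 26 probes) than inside the gene (0.74 ± 1.52, 9 probes). The start used for Pcdh1 is an estimate, the point where the probe annotation turns to inside the gene. No RefSeq promoter was matched to check it, so this contrast depends on an unchecked start. Probes between 2500 and 1000 bp upstream held 5.99 CpG per 100 bases, against 0.47 in the first 1000 bp inside.

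**Figure D2:**
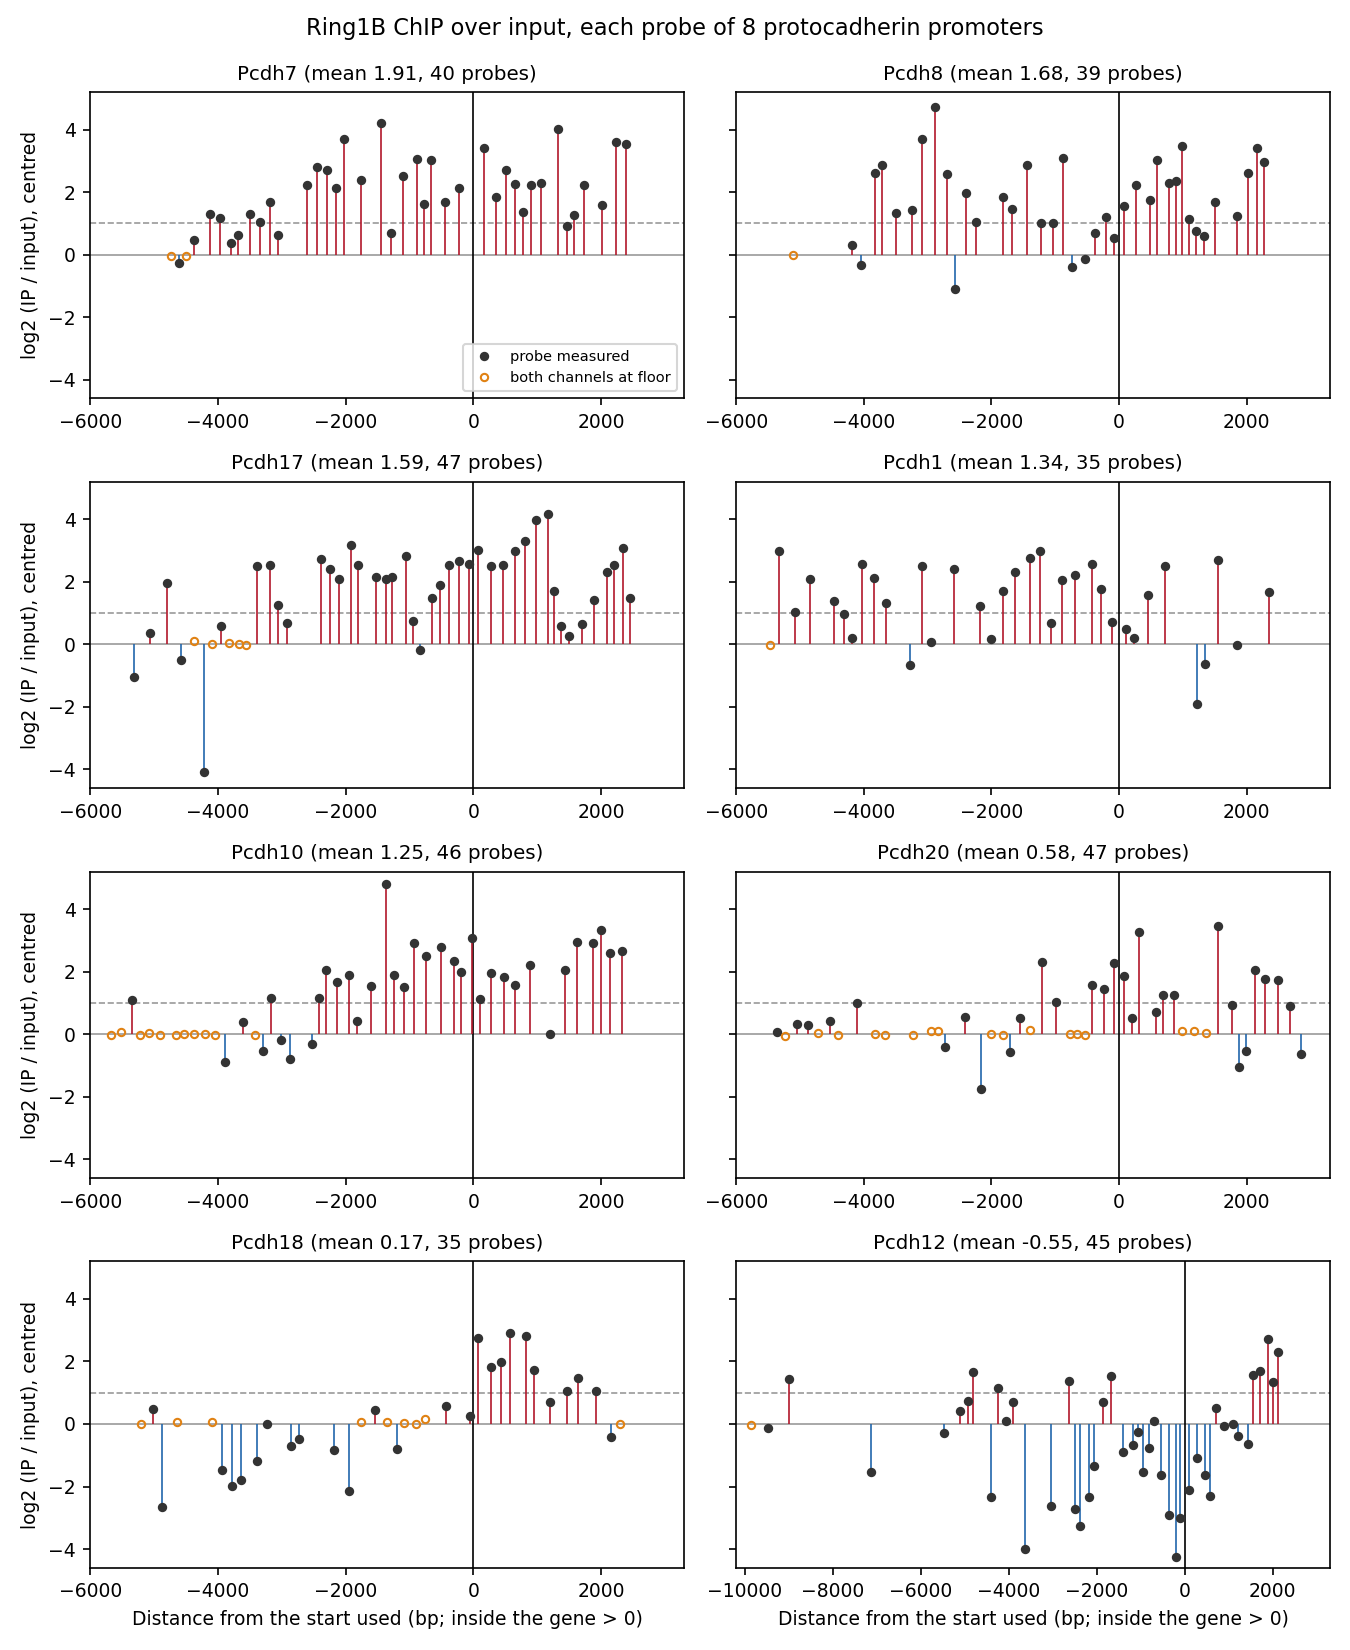
Centred log2 ratio of IP over input (y axis) of each probe against its distance from the start in bp (x axis, gene interior to the right, wider for Pcdh12), 1 panel a gene; open points are probes at the floor in both channels. Pcdh7, Pcdh8, Pcdh17, Pcdh1 and Pcdh10 hold broad runs above the dashed line at 1, Pcdh18 has a block just inside the gene, and Pcdh12 is lowest around its start.

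Among the delta-2 genes, Pcdh8, the paraxial protocadherin of somite and brain development, was tiled at chr14:74449677-74457101. Its 39 probes ran between -1.10 and 4.72 with a median of 1.56, and 29 were at or above 1. The highest, 2884 bp upstream, had an IP signal of 8685, against an input signal of 295. The promoter held high values on both sides of a dip before the start. The 6 probes in the last 1000 bp upstream averaged 0.83 ± 1.25 with 2 at or above 1, whereas the 7 probes in the first 1000 bp of the gene averaged 2.38 ± 0.67 with all 7 at or above 1. The 11 probes beyond 2500 bp upstream averaged 1.65 ± 1.82. The 2 probes that lie in the printed RefSeq promoter, which holds the TATAAA and octamer letters, lay in the dip at 1.22 and 0.52.

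Pcdh17, which acts at synapses of the basal ganglia, was tiled at chr14:79116648-79124464. Its 47 probes ran between -4.07 and 4.18 with a median of 2.10, and 31 were at or above 1. The 6 probes in the first 1000 bp inside the annotated gene averaged 3.06 ± 0.54, the highest section mean of the 8 genes, with a median IP signal of 22709 and a median input signal of 2257. Beyond 2500 bp upstream the mean was 0.29 ± 1.59 over 15 probes, 5 of them at the floor in both channels. The lowest probe of the gene lay there, 4217 bp upstream, with an IP signal of 68 and an input signal of 1017. Its neighbours, at 0.11 and 0.02, were both at the floor in both channels and gave no level. The start used for Pcdh17 is an estimate, the point where the probe annotation turns to inside the gene. Probes 2246 and 2099 bp upstream of it matched the printed RefSeq promoter, so the RefSeq start lies about 2076 bp upstream of that point, and the ratios there were 2.41 and 2.10.

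Pcdh10, or OL-protocadherin, is required for axon growth through the striatum, and was tiled at chr3:45315984-45324048. Its 46 probes ran between -0.90 and 4.80 with a median of 1.33, and 27 were at or above 1. The profile had 2 levels. Beyond 2500 bp upstream, 19 probes averaged -0.01 ± 0.50 with 11 of them at the floor in both channels, so most of that stretch gave no level. From 1000 bp upstream to the start, 6 probes averaged 2.60 ± 0.41 and all 6 were at or above 1. Inside the gene 12 probes averaged 2.10 ± 0.92. Within 1000 bp of the start alone the mean was 2.21, and with upstream probes only, a choice made after seeing the data, it was 0.95 and below the threshold. The highest probe, 1365 bp upstream, had an IP signal of 17819 and an input signal of 546.

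Pcdh18, which binds the adaptor Dab1, was tiled at chr3:49879653-49887218. Its 35 probes ran between -2.66 and 2.89 with a median of 0.05, and 9 were at or above 1. All 9 lay inside the gene. The 6 probes in the first 1000 bp averaged 2.33 ± 0.54 and all 6 were at or above 1, whereas 0 of the 23 upstream probes were, and these averaged -0.52 ± 0.93. Within 1000 bp of the start the mean was 1.5, and over all alternatives it ran between -0.52 and 1.5. Of the upstream probes 8 were at the floor in both channels, and the median input signal over the whole promoter was 200, against 550 to 1137 in the 5 genes at or above 1. The scanner's own error of the log2 ratio had a median of 1.14 in Pcdh18, against 0.31 to 0.38 in those 5 genes.

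Outside the delta groups, Pcdh20 was tiled at chr14:83198686-83206955. Its 47 probes ran between -1.76 and 3.46 with a median of 0.13, and 13 were at or above 1. High values stood around the start. The 7 probes of the last 1000 bp upstream averaged 0.90 ± 0.92 and the 7 of the first 1000 bp inside averaged 1.29 ± 1.05, against 0.13 ± 0.32 over the 14 probes beyond 2500 bp upstream. Of those 14 probes 8 were at the floor in both channels, so most of that stretch gave no level. In the last 1000 bp upstream 3 of the 7 were at this floor, and in the first 1000 bp inside 1 of the 7. Of all 47 probes 17 were at the floor in both channels and input stood above background at 25, with a median input signal of 66.2 and a median scanner error of 1.51, the largest median scanner error of the 8. Its mean was 1.09 within 1000 bp of the start and 0.89 without the probes at the floor in both channels. It was 0.35 with loess, 0.30 in the series table, 0.26 with normexp and 0.13 as the median over probes.

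Pcdh12, an adhesion protein of endothelium and placental trophoblast also called VE-cadherin-2, was tiled at chr18:38658328-38670375, 66.9 kb from the tiled promoter of Pcdh1. Its 45 probes ran between -4.26 and 2.73 with a median of -0.29. In total 17 probes reached -1 or lower, and 10 reached 1 or higher. IP signal was lower than input around the start: the 7 probes of the last 1000 bp upstream averaged -2.00 ± 1.49, and the probe 208 bp upstream had an IP signal of 103 and an input signal of 1768. Only beyond 1000 bp inside the gene was the mean positive, at 1.08 ± 1.26 over 8 probes. Within 1000 bp of the start it was -1.59, and it was -0.28 with normexp and 0.13 over all 14 probes inside the gene. Rnf14, which encodes a ubiquitin ligase, shares 16 probes with Pcdh12 under a hyphen-joined name; those averaged -0.38 ± 1.73, the 29 of Pcdh12 alone -0.64 ± 1.75 and the 15 of Rnf14 alone 0.23 ± 0.71.

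**Figure D3:**
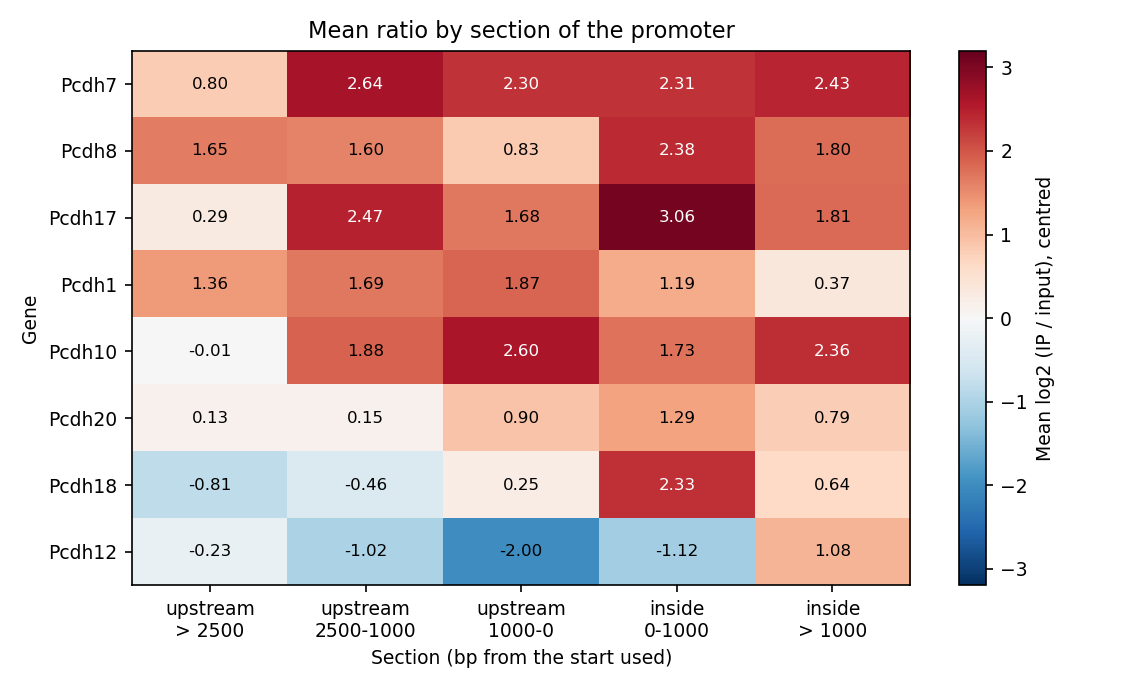
Mean centred log2 ratio of IP over input (colour and number) in 5 sections of each promoter (columns, bp from the start used) for the 8 genes (rows, by falling gene mean). Pcdh17 reaches 3.06 in the first 1000 bp inside the start used, Pcdh18 is highest there at 2.33, and Pcdh12 is lowest at -2.00 in the last 1000 bp upstream. For Pcdh17 the RefSeq start lies about 2076 bp upstream of the start used, so its sections are shifted against that start.

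A contiguous region was a run of 3 or more probes with a running mean, over 500 bp to each side, of at least 1. A high region of at least 2000 bp was found in 5 of the 8 genes, the 5 at or above 1, and in 3.05% of all genes (5.70% of those with at least 30 probes). Since it comes from the same ratios it is no independent support. The widest covered 5689 bp in Pcdh17 (35 probes, mean 2.14), 5629 bp in Pcdh7 (30 probes, mean 2.35) and 4692 bp in Pcdh10 (26 probes, mean 2.18). All 3 ran on to the last probe inside the gene, so their full width was not measured. On the whole array 118 high regions and 2 low ones reached 4000 bp.

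The other high genes had split regions. In Pcdh8, 3204 bp upstream (17 probes, mean 1.73) and 2526 bp over the start and the gene (17 probes, mean 1.93) were separated by the dip before the start. Pcdh1 had 3025 bp (15 probes, mean 1.74) ending 84 bp before the start and a further 1872 bp upstream (10 probes, mean 1.47). The Pcdh8 region over the start and the outer Pcdh1 region also ran to the edge of the tiling. Below the 2000 bp length, Pcdh18 had 1746 bp between 70 bp upstream and 1676 bp inside (10 probes, mean 1.74), and Pcdh20 had 993 bp between 274 bp upstream and 718 bp inside (7 probes, mean 1.62). Pcdh12 had 467 bp inside the gene (4 probes, mean 2.02), which began at the edge of the tiling, so its full width was not measured. With the sign turned, Pcdh12 held a low region of 1444 bp over its start (10 probes, mean -1.96). Another low region, of 621 bp upstream (5 probes, mean -1.65), lay only partly under the name shared with Rnf14. Pcdh18 held one of 776 bp upstream (5 probes, mean -1.28). None of the 8 held a low region of at least 2000 bp, which 0.985% of all genes did.

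CpG content of the probes, which the choice of genes did not use, divided the 8 as the ratio did. It was 3.08 CpG per 100 probe bases in Pcdh8, 3.07 in Pcdh7, 2.49 in Pcdh17, 2.39 in Pcdh10 and 2.33 in Pcdh1, above 91.7% to 98.5% of all genes. In Pcdh20 it was 0.90, in Pcdh12 0.80 and in Pcdh18 0.75, above 21.7% to 29.3%, and the median of all genes was 1.25. By this measure the 2 sets did not overlap. In the 300 bases of the RefSeq promoters they did: Pcdh18 held 23 CpG, against 14 in Pcdh8 and 11 in Pcdh7. All 5 high genes lay in the fifth of genes richest in CpG, where 232 of 3369 genes (6.89%) were at or above 1, and the other 3 lay in the fifth second from the bottom, where 9 of 3369 (0.267%) were.

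Pooled over the 8 genes, the 95 probes with 2 or more CpG averaged 1.87 ± 1.21 and 77.9% were at or above 1, the 82 with 1 CpG averaged 1.04 ± 1.53, and the 157 without CpG averaged 0.42 ± 1.51. This pooling mixes CpG-rich high genes with CpG-poor low ones. Within single genes the full order held in 4 of 8, Pcdh7, Pcdh8, Pcdh10 and Pcdh17. In all 8, probes with 2 or more CpG averaged above those without CpG. The same counts over all genes are not given here. In Pcdh7 the 19 probes with 2 or more CpG averaged 2.29 ± 1.05, the 13 with 1 CpG 2.18 ± 0.91 and the 8 without CpG 0.57 ± 0.75. In Pcdh1 the means were 1.51 (9 probes), 1.22 (9 probes) and 1.31 (17 probes), and in Pcdh20 0.64 (7 probes), 0.54 (10 probes) and 0.57 (30 probes), with differences inside the SD over probes. In Pcdh18 the means were 1.87 (5 probes), -0.23 (4 probes) and -0.10 (26 probes). Those of Pcdh12 were 0.14 (4 probes), -0.62 (10 probes) and -0.61 (31 probes), again inside the SD over probes. Probes of all named genes averaged 0.22, -0.04 and -0.17 in the 3 classes. Signal moved with CpG too. Of the member probes 2.11% were at the floor in both channels with 2 or more CpG, against 19.7% without CpG, and the median input signal was 969 and 190. The part of probe brightness in this order was not tested. In Pcdh18 the CpG-rich part was short: the probes of the first 1000 bp inside the gene held 2.71 CpG per 100 bases, and those beyond 2500 bp upstream 0.14.

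**Figure D4:**
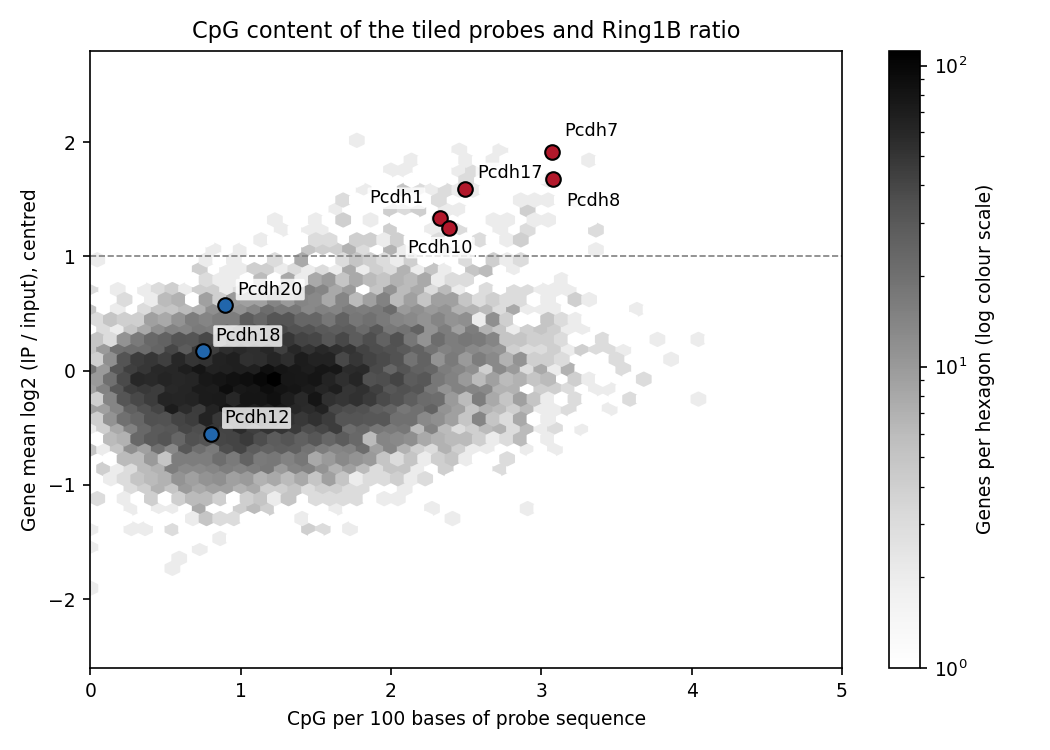
Gene mean centred log2 ratio of IP over input (y axis) against CpG per 100 bases of its probes (x axis) for all genes (grey hexagons, log colour scale) and the 8 protocadherins (red at or above 1, blue below), with 14 genes outside the axes. The 5 red genes lie at 2.33 to 3.08 CpG and the 3 blue ones at 0.75 to 0.90.

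The ratio divides by input, and over the array it differed with input brightness, so the members' values are given by input signal, for probes not at the floor in both channels. In the 5 genes at or above 1 the mean ratio was 1.76 (64 probes) at an input signal under 500, 1.94 (66 probes) between 500 and 2000, 1.66 (44 probes) between 2000 and 5000 and 0.60 (13 probes) at 5000 or more. All probes of named genes averaged 0.65, -0.63, -1.20 and -1.11 in the same classes. The 5 genes were grouped by these very ratios, so their place above the array is no check on the part of input brightness, which was not tested.

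The other 3 genes differed among themselves. Pcdh12 had 0.93 (18 probes), -1.01 (14 probes) and -2.26 (11 probes) in the first 3 classes and -2.34 at its 1 brighter probe. Pcdh18 had 0.29 (17 probes) and 0.05 (9 probes) in the first 2 classes and no brighter probe. Pcdh20 had 1.02 (26 probes), 0.83 (2 probes), and 1 probe in each brighter class, at -0.55 and -1.05. Thus 11 of the 12 probes between 2000 and 5000 in these 3 genes belonged to Pcdh12. At or above 1 were 67.6% of the 207 probes of the 5 genes and 25.2% of the 127 probes of the 3, against 17.7% of all probes on slide 1 and 21.7% on slide 2.

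**Figure D5:**
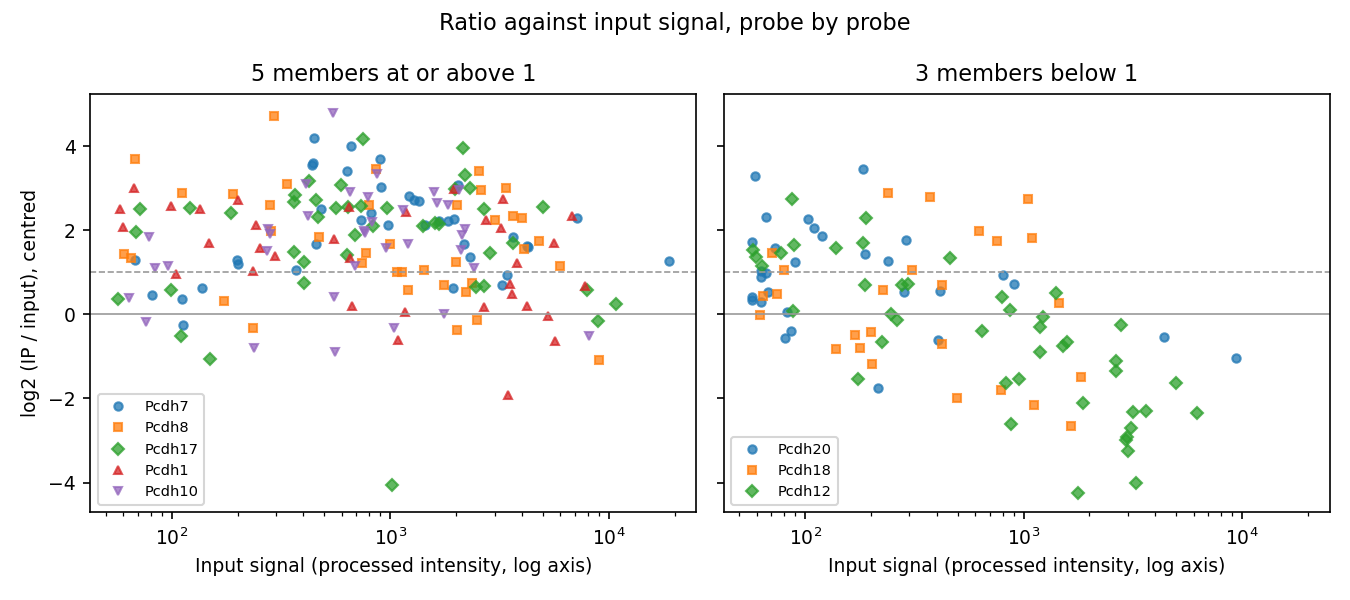
Centred log2 ratio of IP over input (y axis) of each probe not at the floor in both channels against its input signal (x axis, log axis, intensity units), for the 5 genes at or above 1 (left) and the 3 below it (right). On the right the bright probes are nearly all of Pcdh12, which averages -2.26 over 11 probes between 2000 and 5000.

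Array probes that match the RefSeq promoters exactly gave a check of the starts. The RefSeq start lay 12 to 34 bp from the start used for Pcdh7, Pcdh8, Pcdh18 and Pcdh20, while the RefSeq start was 212 bp upstream of it for Pcdh10 and 2076 bp for Pcdh17. The ratios in the printed sequences were 2.12 in Pcdh7, 2.34 and 1.99 in Pcdh10, 2.41 and 2.10 in Pcdh17, 2.27 in Pcdh20 and 0.26 in Pcdh18. The CpG-rich Pcdh18 window thus held a low probe 48 bp upstream of the start used, and the next probe, 76 bp inside, was at 2.74. The CpG-poor Pcdh20 window held a high probe, with an IP signal of 558 and an input signal of 103.

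Related genes were described for comparison. Among the non-clustered family genes outside the 8, Cdhr1, a photoreceptor cadherin, had -0.17 and Cdhr5, of the intestinal brush border, -0.42. Pcdh9, Pcdh11x, Pcdh15, Pcdh19 and Cdhr2 were listed too but were not among the genes measured with at least 3 probes. Of 53 clustered protocadherins 9 were at or above 1, with 3 holding a high region of at least 2000 bp. Of the 31 clustered genes with at least 20 probes, a number that all 8 non-clustered genes exceed, 3 were at or above 1 and 0 held such a region. Of all genes with that many probes 2.12% reached 1 and 1.15% reached -1 or lower. Of 30 other cadherin superfamily genes listed, 24 were measured. Among these 24 the median was -0.02, 2 (8.33%) were at or above 1 and 3 held a region. With at least 20 probes the highest were Cdh8 (1.07, 26 of 27 probes inside the gene), Cdh11 (1.07) and Celsr2 (0.96). Cdh8 and Cdh11 are classical type II cadherins of neurons and mesenchyme, and Celsr2 is a planar polarity cadherin. The lowest were Cdh15 (-0.61), the muscle M-cadherin, Cdh26 (-0.48) and Cdh5 (-0.45), the endothelial VE-cadherin.

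Genes for proteins that bind protocadherins or act with them were mostly near the array's middle. Of 13 measured partners 0 reached 1 and 0 reached -1. Of all genes 1.99% and 1.85% did so, and for 13 genes these counts are near those shares. The median was -0.10, and 1 partner, Cdh2, held a high region of at least 2000 bp (3.05% of all genes). The highest were Cdh2 (0.69), the N-cadherin, which was also counted in the superfamily list, and Dab1 (0.66), the Reelin pathway adaptor bound by Pcdh18.

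Profiles most like those of the 3 highest genes were found by the root mean square (RMS) difference in 500 bp bins over at least 8 shared bins of the same slide. For Pcdh7 they were Dbx1 (RMS 0.53, 15 bins, mean 1.87) and Nkx6-1 (RMS 0.72, 15 bins), among 6805 genes compared. For Pcdh8 they were Tbc1d24 (RMS 0.73, 9 bins, mean 0.99) and Bcor (RMS 0.73, 15 bins, mean 1.53), among 6569. For Pcdh17 they were LOC544810 (RMS 0.65, 9 bins, mean 1.20) and Six3 (RMS 0.68, 10 bins, mean 2.39), among 6596. Dbx1, Nkx6-1 and Six3 encode homeobox transcription factors, and Bcor encodes a Polycomb-associated corepressor. Tbc1d24 and LOC544810, each compared over 9 bins, are not described here. The search used the same ratios that chose the 3 genes, so it was bound to return genes with similar ratios. It is no independent support.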

How the data were processed

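Ring1B IP DNA (Cy5) and input DNA (Cy3) were hybridised to 2 slides of an Agilent promoter set. Per the file headers, the authors quantified the scans in Agilent Feature Extraction (version 9.1.3.1). The deposited processed signals are background-subtracted, dye-normalized intensity values, per the file headers, and the dimmest spots carry a surrogate, called floor here. The deposited log10 ratio is red over green, per the file headers. The deposited p-value of each spot and the scanner's error of the ratio come from the software's error model, per the file headers; no call rests on that p-value. Values of the deposited series table were the log2 ratio of mean signals, as checked against the scanner files. DNA was amplified by linker-mediated PCR before labelling, per the labels' protocols.

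The value used was log2 of red over green processed signal minus the slide median (0.23 on slide 1, 0.16 on slide 2), without control spots and 141 and 17 outlier probes. Input stood above background at 74.1% and 76.3% of probes on slides 1 and 2, and IP at 77.2% and 80.6%; surrogates filled both channels at 18.2% and 15.5%. Of the array's gene names, 12588 matched a present symbol, 3875 an older one and 1 an accession, and 631 none. The start was the deposited distance on slide 1 and, on slide 2, the boundary between promoter and inside probes, which lay a median of 52 bp from the deposited start over 7977 genes of slide 1. The build of the array coordinates (not given in the sources used here) stays unknown, and nothing was converted between builds. Region gaps were under 1000 bp. Genes were named by a rule: the 8 members, the listed family genes, the 3 highest and 3 lowest superfamily genes with at least 20 probes, the 2 highest partners, the 2 most alike profiles of each of the 3 highest members, and the gene sharing a promoter name. The members, lists, rule and settings were chosen with earlier results of these data known. Alternatives were normexp background correction (offset 50) and loess with limma 3.58.1 in R 4.3.3, no centring, the series table, leaving out dim, floor or shared-name probes, GC correction, the median, windows of 1000 and 2500 bp, and other thresholds and region settings. Calculations used Python 3.11.15 with pandas 2.3.3 and numpy 2.4.6 and were tested on simulated data.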

Additional observations from a re-analysis of the deposited data

How the results depend on the processing

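The count of 5 genes at or above 1 was unchanged under normexp, loess, no centring, the series table, GC correction, the median over probes, and without dim, floor or shared-name probes. It was 7 within 1000 bp of the start (8.12% of all genes), with Pcdh18 and Pcdh20 added. It was 6 at a threshold of 0.5 (7.62%) and 3 at 1.5 (0.653%), Pcdh7, Pcdh8 and Pcdh17. After seeing the data, upstream probes only were tried and gave 4, without Pcdh10; inside probes only gave 5, with Pcdh18 in place of Pcdh1. The median over the 8 genes, 1.30, was 1.51 without probes at the floor in both channels, 1.62 within 1000 bp, 1.51 within 2500 bp and 1.78 inside the gene; its other values were 1.09 to 1.49. The count of genes with a region of at least 2000 bp, 5, was 3 at a running mean of 1.5 (Pcdh7, Pcdh10 and Pcdh17; 1.18% of all genes). Pcdh7 ranged between 1.66 and 2.44 over the alternatives, Pcdh8 between 1.43 and 2.07, Pcdh17 between 1.24 and 2.32, Pcdh1 between 0.74 and 1.58, Pcdh10 between 0.95 and 2.21, Pcdh20 between 0.13 and 1.09, Pcdh18 between -0.52 and 1.5, and Pcdh12 between -1.59 and 0.13. The cause of these moves was not tested. No paired analysis was possible because the 2 arrays carry different probes of 1 group. With 1 array a promoter, spread between experiments was not measured, and signal near the floor limits Pcdh10, Pcdh18 and Pcdh20. Without probes at the floor in both channels the Pcdh10 mean was 1.65.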
